A study of Bubalus bubalis with 6 samples.

Results

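The matrix metalloproteinases MMP1, MMP2, MMP3, MMP11, MMP13, MMP14 and MMP19 and their inhibitors TIMP1, TIMP2 and TIMP3 were looked up by gene name in a table of gene models. Of these 10 names, 7 were matched, each by 1 model, among 19476 models in all: MMP1, MMP2, MMP11, MMP13, MMP14, MMP19 and TIMP2. MMP3, TIMP1 and TIMP3 are not analysed here. The cells were cultured intramuscular adipocytes of buffalo (Bubalus bubalis), taken through adipogenic differentiation and collected at day 4. In 3 samples they had received an adenovirus for the long non-coding RNA lncFABP4 (genotype label lncFABP4 overexpress), and in 3 samples an adenovirus for EGFP, a fluorescent protein that served as control (genotype label WT). All 6 samples were grown with 20% fetal bovine serum and had 48 hours of transduction followed by 48 hours in inducing medium. The dose of virus and the number of animals behind the cells are not given in the labels, and the wells were plated in triplicate, so the p-values rest on a spread among samples that may be only technical.

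Matrix metalloproteinases are zinc-dependent enzymes that cut collagens and other proteins around the cell. They are made as inactive precursors, and tissue inhibitors of metalloproteinases (TIMPs) block the active enzymes. MMP1 and MMP13 are secreted collagenases, MMP2 is a gelatinase that cuts denatured collagen and basement membrane, and MMP14 is a collagenase held in the cell membrane. MMP14 activates the MMP2 precursor at the cell surface with TIMP2 as the link between them, while an excess of TIMP2 blocks MMP14. In mice, MMP14 is needed for fat cells to remodel the collagen around them. The question put to these data was which of these genes differed in RNA level when lncFABP4 was overexpressed.

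The collagenase gene MMP1 rose, the genes of the membrane enzyme MMP14, the gelatinase MMP2 and the furin-activated enzyme MMP11 fell, and MMP19 rose slightly after lncFABP4 transduction. Levels were read as FPKM, fragments scaled by model length and by sequencing depth, which can be compared between genes. The values carry no stated unit, so comparisons between genes rest on this reading. All 7 models passed the minimum of 1 FPKM in 3 samples. Among them 2 were called higher and 3 lower at an adjusted p of 0.05 (limma on log2(FPKM + 1), Benjamini-Hochberg over 11064 models). Over all models tested, 26.7% were called, 16.5% higher and 10.2% lower. For 5 of the 7 models no sample of one group fell within the range of the other group, 2 with lncFABP4 higher and 3 with it lower. The same held for 43.9% of all models tested, 26.6% higher and 17.2% lower. The median log2 change of the 7 was -0.39, and that of all models tested was 0.05.

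**Figure D1:**
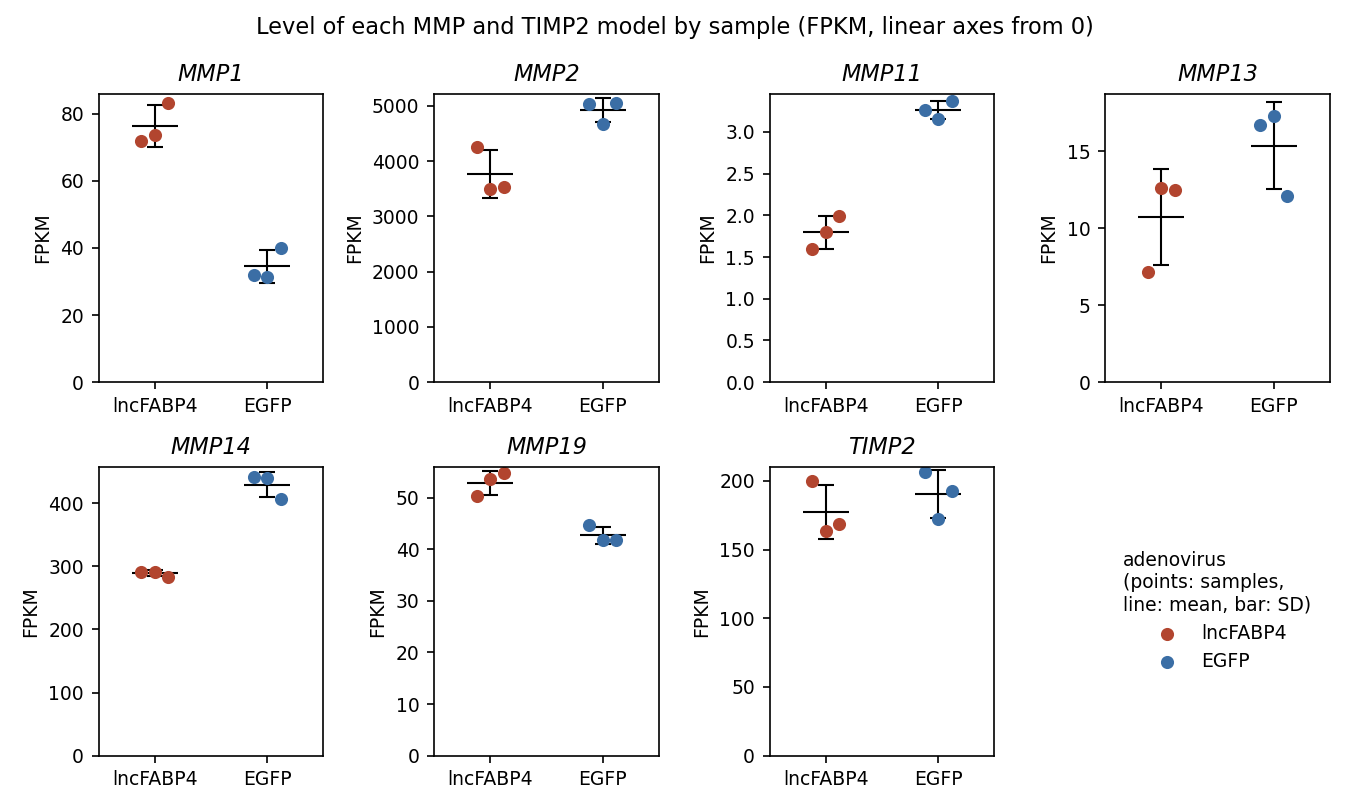
Level of each of the 7 models (FPKM, linear axes from 0) in the 3 lncFABP4 and the 3 EGFP samples; points are samples, lines are means and bars are SD. The groups are apart for MMP1, MMP2, MMP11, MMP14 and MMP19 and overlap for MMP13 and TIMP2.

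MMP1 (evm.model.chr16.18), a secreted enzyme that opens the triple helix of fibrillar collagen, had 71.8, 73.6 and 83.3 FPKM in the lncFABP4 samples, against 31.9, 31.3 and 40.1 FPKM in the EGFP samples. Every lncFABP4 sample lay well above every EGFP sample. The means were 76.2 ± 6.18 and 34.4 ± 4.86 FPKM (SD, n = 3 each), a 2.21-fold difference. On the log2 scale it was 1.13 ± 0.11 (SE), with a limma adjusted p = 0.000564. This was the largest change among the 7 models. Its call stood in each of 18 alternative settings, with log2 changes between 1.04 and 1.24.

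MMP13 (evm.model.chr16.16), the other secreted collagenase, did not follow. It had 7.14, 12.6 and 12.5 FPKM in the lncFABP4 samples and 16.7, 17.3 and 12.1 FPKM in the EGFP samples. Replicate 1 of lncFABP4 was the lowest and replicate 3 of EGFP lay within the range of the lncFABP4 samples. The log2 change was -0.50 with a 95% interval of -0.99 to -0.01, and it did not pass (limma adjusted p = 0.117). Without lncFABP4 replicate 1 the change was -0.26 (limma adjusted p = 0.222). The variation between replicates was the largest of the 7 models, 29.0% of the mean in the lncFABP4 samples and 18.5% in the EGFP samples.

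The model numbers place MMP13, MMP12 and MMP1 side by side on chromosome 16 of the authors' assembly, as 16, 17 and 18, and MMP7 at 20. In the RefSeq annotation of the NDDB_SH_1 assembly the same genes lie in the order MMP7, MMP1, MMP12, MMP13, with other metalloproteinase genes among them. MMP3 is one of these and lies there between MMP1 and MMP12. The identity of the model called MMP1 rests on its gene name alone, since no sequences were compared. The 2 assemblies may number positions differently, so no coordinates are given. Within this row of genes the measured changes were unlike. MMP12, the macrophage elastase gene, had 5.21 ± 0.933 FPKM in the lncFABP4 samples and 4.46 ± 1.53 FPKM in the EGFP samples, a log2 change of 0.21 that was not called (limma adjusted p = 0.455). MMP7, the gene of matrilysin, was too low to test, at 0.0331, 0.0532 and 0.0608 FPKM in the lncFABP4 samples and 0, 0.00812 and 0 FPKM in the EGFP samples. Beside the row, TMEM123 had a log2 change of -0.38 (limma adjusted p = 0.0123), BIRC2 one of 0.40 (0.0297) and DCUN1D5 one of -0.07 (0.612, not called). The call of BIRC2 was lost without lncFABP4 replicate 2 or 3 or without EGFP replicate 1 or 3. These neighbours were named for their position after their values had been seen. The ratio of MMP1 to MMP13 within a sample was 10.05, 5.84 and 6.69 in the lncFABP4 samples and 1.92, 1.81 and 3.31 in the EGFP samples, so the groups were apart. A single scaling factor per sample cannot move such a ratio, but quantile scaling can.

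MMP14 (evm.model.chr12.255), the membrane enzyme, had 292, 291 and 284 FPKM in the lncFABP4 samples, against 442, 440 and 407 FPKM in the EGFP samples. The lncFABP4 samples were nearly alike, and all lay under the EGFP samples. The means were 289 ± 4.54 and 429 ± 19.8 FPKM (SD, n = 3 each), so the lncFABP4 samples held 67.3% of the EGFP level. On the log2 scale MMP14 differed by -0.57 ± 0.06 (SE; limma adjusted p = 0.000921), and the call stood in each of 18 alternative settings, between -0.62 and -0.53.

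MMP2 (evm.model.chr21.220), the gelatinase that MMP14 activates, was among the most abundant models of the whole table, at rank 3 or 4 in each lncFABP4 sample and rank 2 in each EGFP sample. It had 4259, 3495 and 3530 FPKM in the lncFABP4 samples, against 5039, 4680 and 5050 FPKM in the EGFP samples. The groups did not overlap, but lncFABP4 replicate 1 lay closer to the EGFP samples than the other two did. It took 1.00% to 1.18% of the summed FPKM of a lncFABP4 sample and 1.38% to 1.43% of that of an EGFP sample. On the log2 scale MMP2 differed by -0.39 ± 0.09 (SE; limma adjusted p = 0.0154). That call was less firm than the calls of MMP1 and MMP14. It was lost without lncFABP4 replicate 2 or 3 (limma adjusted p = 0.0664 each), without EGFP replicate 1 (0.0541) or EGFP replicate 3 (0.0560), and without a filter on low models (0.133). With quantile scaling the change was -0.17, still called (limma adjusted p = 0.0489).

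TIMP2 (evm.model.chr3.187), the inhibitor that also links MMP14 to the MMP2 precursor, had 200.03, 163 and 169 FPKM in the lncFABP4 samples and 206, 172 and 193 FPKM in the EGFP samples. The groups overlapped, and replicate 1 was the highest in both. The log2 change was -0.10 with a 95% interval of -0.33 to 0.13, and it was not called (limma adjusted p = 0.471). The interval still allows a fall of the size of 0.33, so the missing call does not show that the level was unchanged.

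Set against TIMP2 in the same sample, both enzymes of this axis were lower. The ratio of MMP2 to TIMP2 was 21.3, 21.4 and 20.9 in the lncFABP4 samples and 24.4, 27.2 and 26.2 in the EGFP samples. The ratio of MMP14 to TIMP2 was 1.46, 1.79 and 1.68 in the lncFABP4 samples and 2.14, 2.55 and 2.11 in the EGFP samples. Neither pair of groups overlapped. These ratios are of the values as reported. With quantile scaling the log2 changes were -0.17 for MMP2, -0.11 for TIMP2 and -0.53 for MMP14. The lower ratio of MMP2 to TIMP2 thus depended on the scaling more than that of MMP14 to TIMP2. The ratio of MMP2 to MMP14 did overlap, at 14.6, 11.99 and 12.4 in the lncFABP4 samples and 11.4, 10.6 and 12.4 in the EGFP samples. Ratios show unequal change and not which model changed, and they were given no test.

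**Figure D2:**
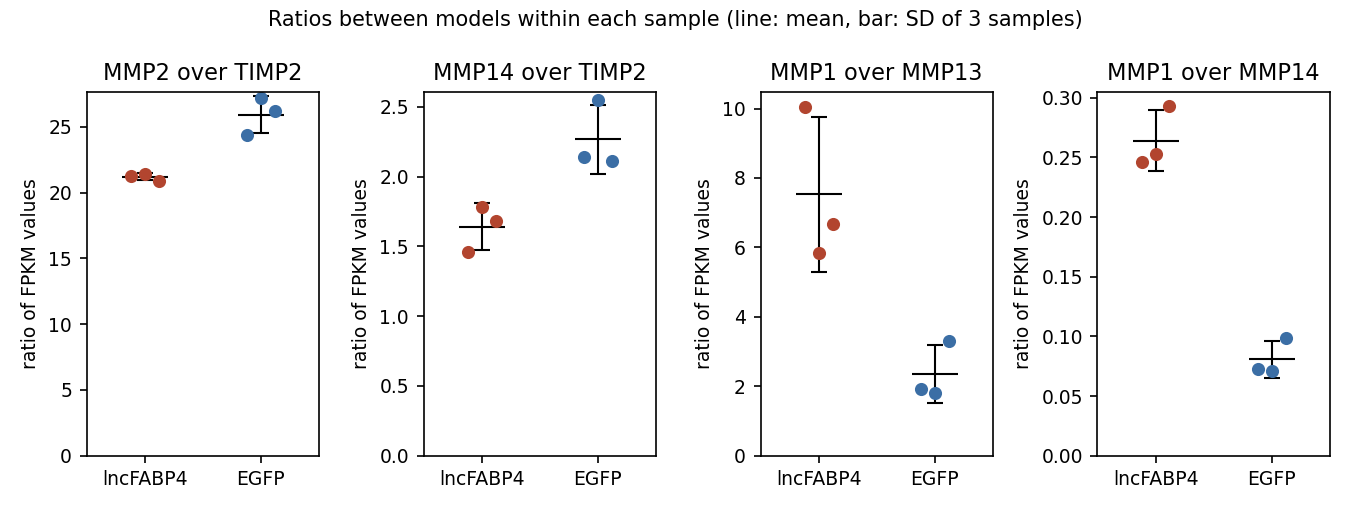
Ratios of FPKM values within each sample (linear axes from 0) for MMP2 over TIMP2, MMP14 over TIMP2, MMP1 over MMP13 and MMP1 over MMP14, lncFABP4 samples left of EGFP samples; lines are means and bars are SD of 3 samples. The first 2 ratios are lower and the last 2 higher in every lncFABP4 sample than in any EGFP sample.

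MMP11 (evm.model.chr17.627), also named stromelysin-3, is cut into its active form inside the cell by furin and restrains fat cell formation in mice. It had 1.599, 1.80 and 1.99 FPKM in the lncFABP4 samples, against 3.27, 3.15 and 3.37 FPKM in the EGFP samples. The groups lay clearly apart at a low level, and the lncFABP4 mean was 55.1% of the EGFP mean. On the log2 scale MMP11 differed by -0.61 ± 0.09 (SE; limma adjusted p = 0.00321). The addition of 1 to a low FPKM shrinks this value, and with a pseudocount of 0.1 it was -0.83. Without replicate 3 of both groups the call was lost by a small margin (limma adjusted p = 0.05002).

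MMP19 (evm.model.chr4.740), a secreted enzyme that cuts basement membrane proteins, had 50.3, 53.6 and 54.8 FPKM in the lncFABP4 samples, against 44.6, 41.8 and 41.8 FPKM in the EGFP samples. The lncFABP4 samples were all higher, by a small margin. The means were 52.9 ± 2.36 and 42.7 ± 1.65 FPKM (SD, n = 3 each), which is 0.30 ± 0.07 (SE) on the log2 scale with a limma adjusted p = 0.0161. The call was lost without lncFABP4 replicate 2 (limma adjusted p = 0.0611) or 3 (0.0755), without EGFP replicate 3 (0.0626) and with quantile scaling (0.0779). By number MMP19 is model 740 of its chromosome. Of the models beside it, PYM1 (739) was higher by 0.37 (log2, limma adjusted p = 0.0368) and TMEM198 (741) was not called. Further off, DGKA (737), a diacylglycerol kinase gene, had a log2 change of 1.34 (limma adjusted p = 7.5e-05). An unnamed model (738) had 0.80 (0.00527) and ORMDL2 (743) 0.34 (0.00791), while DNAJC14 (742) was not called. These models were named for their position after their values had been seen. The labels state no strand for the counting, so overlapping neighbours could share reads.

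**Figure D3:**
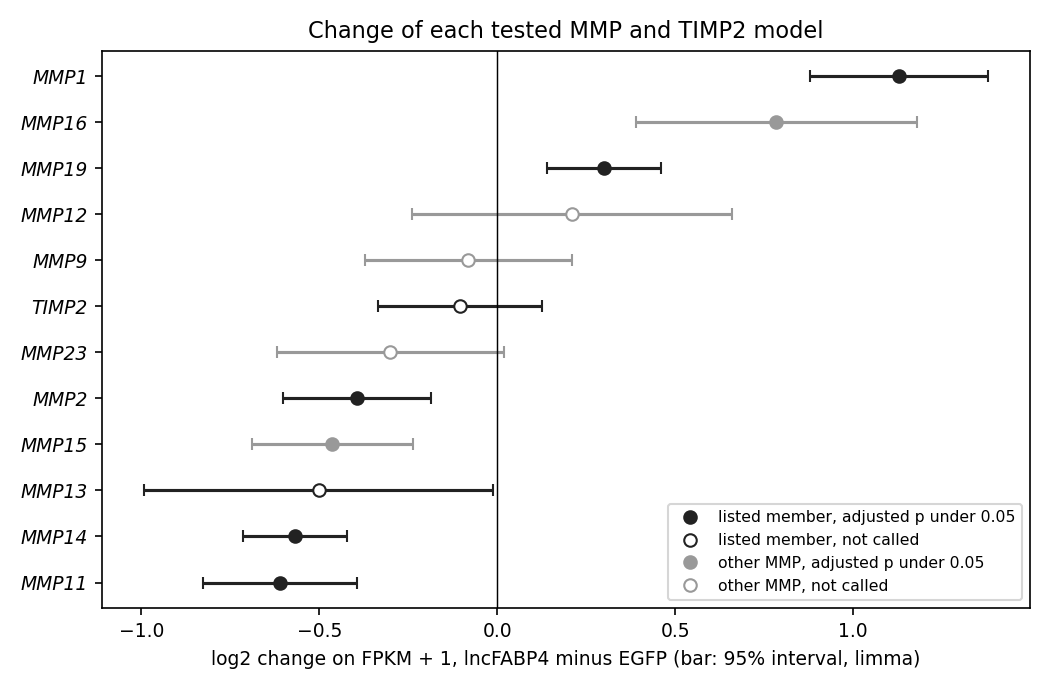
Log2 change on FPKM + 1, lncFABP4 minus EGFP, for the 7 models (black) and the other tested MMP models (grey), with 95% intervals from limma; filled points passed an adjusted p of 0.05. MMP1, MMP16 and MMP19 are higher, MMP2, MMP11, MMP14 and MMP15 are lower, and 5 models are not called.

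The order of levels changed in a single place. In the lncFABP4 samples it ran MMP2, MMP14, TIMP2, MMP1, MMP19, MMP13, MMP11, and in the EGFP samples MMP19 stood above MMP1. No neighbours in either order had overlapping sample ranges, although MMP1 reached 40.1 FPKM in an EGFP sample and MMP19 was at least 41.8 FPKM there. MMP1 made up 17.0%, 17.0% and 19.1% of the summed FPKM of MMP1, MMP11, MMP13, MMP14 and MMP19 in the lncFABP4 samples, against 5.93%, 5.88% and 7.95% in the EGFP samples. MMP14 made up 69.1%, 67.3% and 65.0% of it in the lncFABP4 samples and 82.1%, 82.5% and 80.7% in the EGFP samples. That sum was 431 ± 7.19 FPKM in the lncFABP4 samples and 525 ± 18.6 FPKM in the EGFP samples (SD, n = 3 each). With MMP2 included, the 6 MMP models summed to 23.7 ± 0.356 times TIMP2 in the lncFABP4 samples and 28.7 ± 1.62 times TIMP2 in the EGFP samples.

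Column totals were 340165 to 360920 FPKM, and the depth estimated from models under 0.3 FPKM was 0.926 to 1.01 times that of EGFP replicate 1. FABP4 stood at 6505 to 12003 FPKM in the lncFABP4 samples and 149 to 197 FPKM in the EGFP samples, and the lncFABP4 RNA itself is not analysed here. Among defining fat cell genes, ADIPOQ reached at most 0.0559 FPKM and CEBPA at most 0.190 FPKM in any sample, while PPARG was at 23.6 to 27.1 FPKM in the lncFABP4 samples and 11.8 to 12.8 FPKM in the EGFP samples. LPL, the lipoprotein lipase gene of the same list, fell (log2 change -0.90, limma adjusted p = 0.00349). Fibroblast and progenitor markers moved with the group: 5 of 5 tested models fell (COL1A1, DCN, DPP4, PDGFRA and THY1), where 10.2% of all models tested fell. Of these, COL1A1 lost its call without lncFABP4 replicate 2 or 3 or EGFP replicate 1. The COL1A1 call was also lost with quantile scaling (log2 change -0.12, limma adjusted p = 0.209) and without a filter on low models (0.139). Without replicate 3 of both groups COL1A1, PDGFRA and THY1 lost theirs (limma adjusted p = 0.160, 0.126 and 0.0521). Their list summed to 5145 to 5644 FPKM in the lncFABP4 samples and 8008 to 8600 FPKM in the EGFP samples. Their part in the falls of MMP2, MMP11 and MMP14 was not tested. In bulk samples such as these, fewer cells of a type and less RNA per cell cannot be told apart. The macrophage list holds MMP9 and MMP12; without them its markers summed to 41 to 44.4 FPKM in the lncFABP4 samples and 25.8 to 33.2 FPKM in the EGFP samples. Of its 3 other tested models, CD14 rose and CD163 fell, and the call of CD163 was lost without lncFABP4 replicate 2 or 3 or EGFP replicate 3. The defining markers PTPRC and CSF1R stayed at or under 0.258 FPKM in every sample. Of the cartilage and bone markers, ACAN and COL2A1 stayed at or under 0.220 FPKM, RUNX2 was not called, and IBSP was tested only through the EGFP samples (at most 0.964 FPKM in the lncFABP4 samples and at least 1.97 FPKM in the EGFP samples). Skeletal muscle markers summed to 2.27 to 3.13 FPKM in the lncFABP4 samples and 4.51 to 5.13 FPKM in the EGFP samples. Of 6 tested pericyte and smooth muscle models, ACTA2 and CNN1 rose (log2 changes 0.85 and 0.76), KCNJ8 fell (-1.40) and 3 were not called; ACTA2 lost its call without lncFABP4 replicate 2 or 3. S100A8, the tested neutrophil marker, fell (-1.36). VWF, the tested endothelial marker, was higher by 0.34, a call lost without lncFABP4 replicate 2 or 3 or EGFP replicate 1 or 3. The part of these cell types in the results was not tested.

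Other metalloproteinases were measured from a list of 41 genes, of which 33 were matched by name (36 models). Of 25 models tested, 4 rose and 9 fell, with a median log2 change of -0.17. Over all models tested, 16.5% were called higher and 10.2% lower. The secreted ADAMTS enzymes made up most of the falls, with 6 of 11 tested ADAMTS models lower, 1 higher and 4 not called; this subgroup was formed after the values had been seen. ADAMTS5, a main aggrecanase, had 18.1 ± 1.48 FPKM in the lncFABP4 samples and 34.7 ± 1.24 FPKM in the EGFP samples (log2 change -0.90, limma adjusted p = 0.000419). ADAMTS3, which trims the ends of procollagen, had 1.53 ± 0.0733 and 3.97 ± 0.339 FPKM in the same order (-0.97, 0.000564), and ADAMTS1, which cuts versican, 5.85 ± 0.413 and 8.63 ± 0.507 FPKM (-0.49, 0.00550).

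Among the membrane-bound relatives of MMP14, MMP15 and MMP16 went opposite ways. MMP15 had 5.32, 4.49 and 4.61 FPKM in the lncFABP4 samples, against 7.71, 6.54 and 6.78 FPKM in the EGFP samples (log2 change -0.46, SE 0.10, limma adjusted p = 0.0114). MMP16 had 5.99, 9.32 and 9.02 FPKM in the lncFABP4 samples, against 3.52, 5.11 and 4.12 FPKM in the EGFP samples (0.78, SE 0.17, 0.0127). MMP15 lost its call without replicate 2 of both groups (limma adjusted p = 0.0581) or replicate 3 of both groups (0.126), and MMP16 without replicate 3 of both groups (0.130). The gelatinase gene MMP9 had 13.3, 13.3 and 13.6 FPKM in the lncFABP4 samples and 12.9, 12.5 and 17.7 FPKM in the EGFP samples, and was not called (-0.08, limma adjusted p = 0.664). MMP23 had 6.17, 4.74 and 5.26 FPKM in the lncFABP4 samples and 8.27, 5.65 and 6.81 FPKM in the EGFP samples, and was not called either (-0.30, limma adjusted p = 0.144). MMP9, MMP16 and MMP23 were named after their values had been seen, and so were the other 3 models that rose: ADAM8 (log2 change 0.43), ADAM17 (0.31) and ADAMTS7 (0.33). The calls of these 3 were each lost without 4 of the 6 libraries in turn. Leaving out lncFABP4 replicate 3 or EGFP replicate 1 left 1 model higher in the list, and leaving out EGFP replicate 3 left 2. Without lncFABP4 replicate 2 or 3, 4 models were lower, and without EGFP replicate 3, 5 were.

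Of 15 genes for inhibitors, clearance and procollagen processing outside the TIMPs above, 11 were matched. Among 10 models tested 1 rose and 4 fell (median log2 change -0.26), beside 16.5% higher and 10.2% lower over all models tested. RECK, a membrane-anchored inhibitor of MMP2, MMP9 and MMP14, was not called, with 18.5, 15.1 and 15.0 FPKM in the lncFABP4 samples and 15.6, 16.3 and 14.4 FPKM in the EGFP samples (log2 change 0.06, limma adjusted p = 0.710). THBS1, whose protein binds MMP2, fell to 645 ± 32.1 FPKM in the lncFABP4 samples, against 1098 ± 91.8 FPKM in the EGFP samples (-0.76, limma adjusted p = 0.000765). The more abundant of 2 models of A2M, a trap for many proteases, had 0.120 ± 0.0385 FPKM in the lncFABP4 samples and 1.31 ± 0.147 FPKM in the EGFP samples. It reached the minimum of 1 FPKM only in the EGFP samples, so a tested difference in this direction was set by the filter, and it is no support for the count of 4. CST3, a cysteine protease inhibitor, fell by 0.49, and PCOLCE2, an enhancer of procollagen processing, rose by 0.46 (log2; limma adjusted p = 0.00871 and 0.00551). LRP1, the receptor that takes up proteases bound to inhibitors, was the remaining fall (-0.27, limma adjusted p = 0.0474) and was named after its values had been seen. Its call was lost without lncFABP4 replicate 2 or 3 or without any EGFP library (limma adjusted p from 0.0574 to 0.166). Without any of the 3 EGFP libraries in turn, 2 models were lower of 9 tested, since A2M was then under the filter.

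A list of 21 genes around the activation of the precursors was matched for 16. It holds activators, inhibitors of activators and membrane proteins, so its counts have no single meaning for activation. Among 14 models tested 2 rose and 3 fell (median log2 change -0.11), beside 16.5% higher and 10.2% lower over all models tested. PLAU, the urokinase gene that starts the plasmin cascade, was not called, with 11.5, 13.8 and 14.5 FPKM in the lncFABP4 samples and 13.0, 11.4 and 13.6 FPKM in the EGFP samples (log2 change 0.06, limma adjusted p = 0.708). PLAT, the tissue activator of plasminogen, fell to 12.01 ± 1.47 FPKM in the lncFABP4 samples, against 21.9 ± 3.56 FPKM in the EGFP samples (-0.81, limma adjusted p = 0.00347). PCSK5, a furin-like convertase, fell to 7.37 ± 0.499 FPKM in the lncFABP4 samples, against 16.6 ± 2.25 FPKM in the EGFP samples in its more abundant model (-1.07, 0.000670). SERPINB2, an inhibitor of urokinase, had 3.42, 7.98 and 9.25 FPKM in the lncFABP4 samples and 1.15, 1.33 and 1.14 FPKM in the EGFP samples (1.75, limma adjusted p = 0.00353). CAV1, which organises the membrane pits where MMP14 is found, rose by 0.75, and SERPINE2, another serpin, fell by 0.67 (log2; limma adjusted p = 0.00104 and 0.0129); SERPINE2 was named after its values had been seen.

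The promoters of MMP1 and MMP13 are known to be driven by AP-1, made of FOS and JUN proteins, and by ETS factors. Of 41 genes listed for upstream signals and factors, 37 were matched. Among 37 models tested 7 rose and 5 fell (median log2 change -0.10). These counts are near the shares over all models tested, 16.5% higher and 10.2% lower. FOS fell to 28.3 ± 3.76 FPKM in the lncFABP4 samples, against 72.8 ± 9.67 FPKM in the EGFP samples (-1.33, limma adjusted p = 0.000485). JUN was not called, with 46.2, 37.7 and 37.8 FPKM in the lncFABP4 samples and 54.5, 45.004 and 45.3 FPKM in the EGFP samples (-0.25, limma adjusted p = 0.131). JUN did pass without lncFABP4 replicate 1 (-0.34, 0.0360), with quantile scaling (-0.34, 0.0491) and with a replicate block (-0.25, 0.0286). Other AP-1 genes went both ways. FOSL1 rose by 0.37 and JUND by 0.44 (log2, limma adjusted p = 0.0176 and 0.00847), while FOSB changed by -0.90 (0.0172). FOSL2, JUNB and ATF3, also listed, were not among the models called. FOSL1 lost its call without lncFABP4 replicate 2 or EGFP replicate 1. IL6, NR4A1 and RELA rose by 0.83, 0.90 and 0.44 (log2; limma adjusted p = 0.00679, 0.00734 and 0.0113). FOSL1, JUND, IL6, NR4A1 and RELA were named after their values had been seen. The part of AP-1 and ETS factors in the levels of MMP1 and MMP13 was not tested. Of the listed ETS factor genes ETV4 and ETS2 rose, and ETS1 and ETV5 were not among the models called. ETV4 had 20.6 ± 1.44 FPKM in the lncFABP4 samples and 10.01 ± 1.23 FPKM in the EGFP samples (0.97, limma adjusted p = 0.000695). ETS2 had 45.03 ± 3.38 FPKM in the lncFABP4 samples and 27.3 ± 0.589 FPKM in the EGFP samples (0.70, 0.000883). NFKBIA, the inhibitor of NF-kB, fell by 0.45 (log2, limma adjusted p = 0.00585), and TGFB1 was not called (-0.23, limma adjusted p = 0.0944), although it passed without lncFABP4 replicate 1 (-0.28, 0.0458). The other 3 models that fell were FOSB, CEBPB and TGFB3, named after their values had been seen; FOSB lost its call without lncFABP4 replicate 2, and TGFB3 without lncFABP4 replicate 2 or 3 or EGFP replicate 1 or 3. The number lower was 13 without lncFABP4 replicate 1, 3 without lncFABP4 replicate 2 and 11 with quantile scaling.

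Matrix proteins that these enzymes cut were measured with 33 tested models from 38 genes, of which 2 rose and 15 fell (median log2 change -0.27). The shares over all models tested were 16.5% higher and 10.2% lower. Among the 15, a LAMB1 model, reached 1 FPKM only in the EGFP samples. The falls with the smallest adjusted p were those of POSTN, periostin (log2 change -1.60), IGFBP5, a growth factor binding protein (-1.56), DCN, decorin (-0.92), and COL3A1, a fibrillar collagen that MMP1 cuts (-0.77). COL3A1 had 1837, 1766 and 1732 FPKM in the lncFABP4 samples, against 3082, 3016 and 2996 FPKM in the EGFP samples (limma adjusted p = 0.000287). The 2 that rose were COL15A1 (0.41, limma adjusted p = 0.0451) and COL6A3 (0.35, 0.0275), named after their values had been seen, and neither passed with TMM or median-of-ratios scaling. COL15A1 was also lost in turn without any library but lncFABP4 replicate 1, and COL6A3 without lncFABP4 replicate 2, EGFP replicate 1 or EGFP replicate 3. Without lncFABP4 replicate 3, 9 models were lower.

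**Figure D4:**
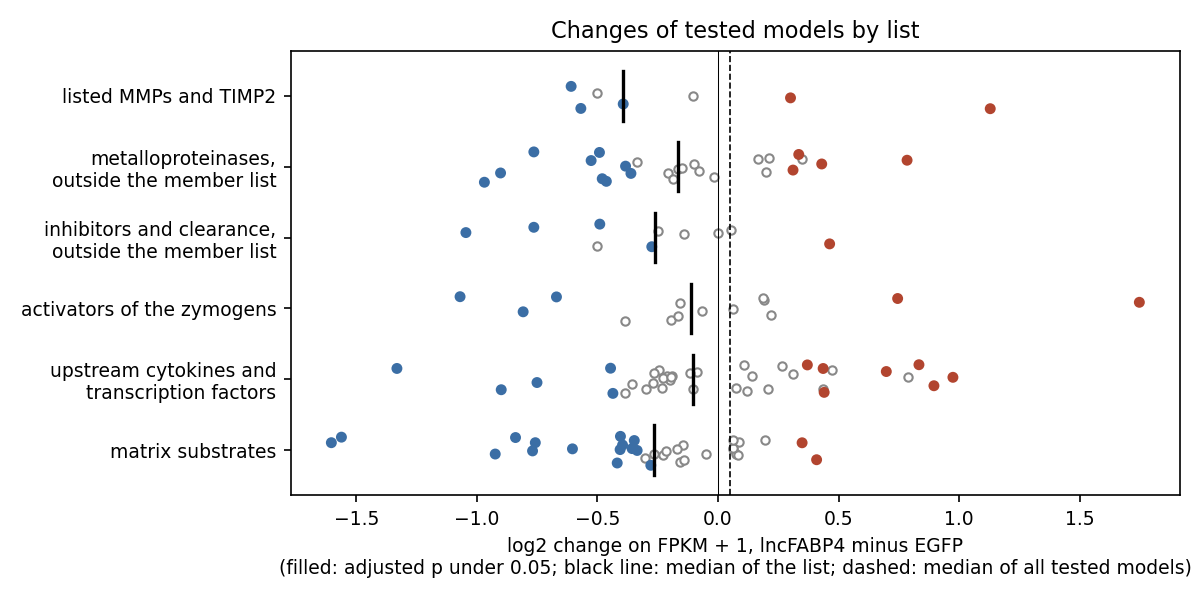
Log2 change on FPKM + 1, lncFABP4 minus EGFP, of every tested model in the 6 groups of genes; red points were called higher and blue points lower at an adjusted p of 0.05, open points were not called, and black lines are medians. The medians lie at -0.39 for the 7 models, from -0.27 to -0.10 for the other lists and at 0.05 for all models tested (dashed line).

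Models whose pattern over the 6 samples was most like that of a member called with a log2 change of at least 0.5 were found by Pearson's r of log2(FPKM + 1). All points share the 2 groups, so r mostly measures the group difference. For MMP1 they were RINT1, FABP3 and TSPAN32 (r of 0.998, 0.998 and 0.997), out of 540 named models at 0.95 or more. For MMP14 they were CDON, TNFRSF21 and EPYC (0.999, 0.999 and 0.998), out of 354. For MMP11 they included TTC3 and RPL5 (0.994 and 0.993), out of 236. TSPAN32 had means of 1.43 FPKM in the lncFABP4 samples and 0.701 FPKM in the EGFP samples, and CDON 0.706 and 2.10 FPKM. Each passed the minimum of 1 FPKM only through the group where it was higher, so a tested difference in that direction was set by the filter.

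**Figure D5:**
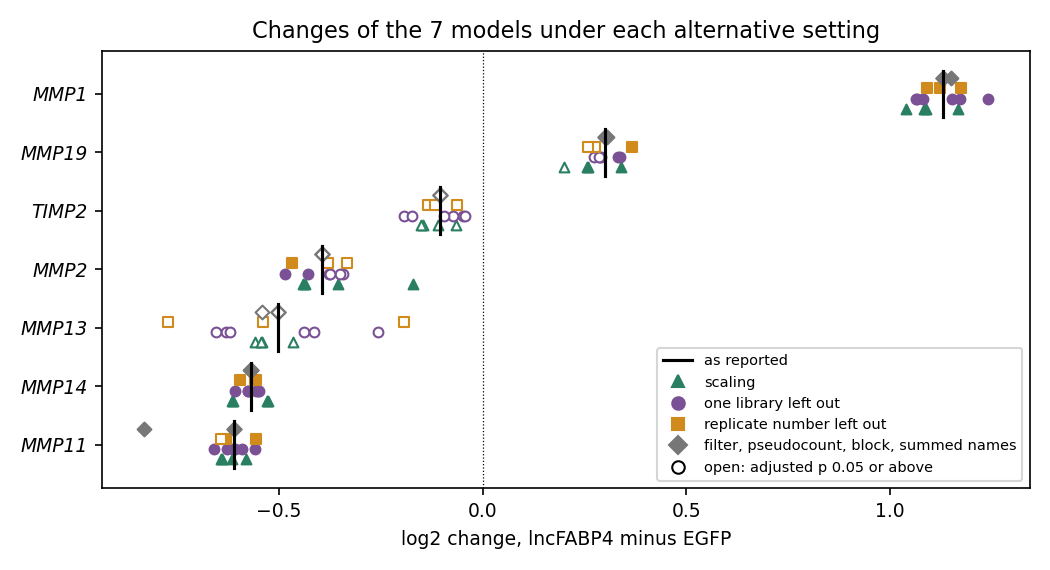
Log2 change of the 7 models as reported (black lines) and under each alternative setting (symbols by kind of setting; open symbols have an adjusted p of 0.05 or above). No model changes sign in any setting run; the symbols of MMP1 and MMP14 are all filled, those of MMP2, MMP11 and MMP19 are partly open, and those of MMP13 and TIMP2 are all open.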

How the data were processed

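Polyadenylated RNA was sequenced on a DNBSEQ platform, per the labels' protocols. The submitters' processing notes name HISAT2 and StringTie but no version, and the sources used here give no genome build or annotation. The deposited table gives 1 value per gene model and sample, read as FPKM because the authors' values are decimals whose column totals differ. Its header names no unit. Names were matched in upper case; 4570 of 19476 models had none. The number of reads behind a value is unknown, so no counting interval is given.

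Models with at least 1 FPKM in at least 3 of 6 samples (11064) were tested with limma 3.58.1 in R 4.3.3, two-sided, with a mean-variance trend, on log2(FPKM + 1), lncFABP4 minus EGFP, with Benjamini-Hochberg adjustment at 0.05. A change on this scale understates that of low genes. The fit was tested on simulated data with independent noise between samples, which checks its working and not the calls made here. Members and lists were chosen with earlier results of these data known. Named are all members, up to 4 called genes per list, PLAU, RECK, FOS, JUN and TGFB1, and the 3 models most like each member called at 0.5 or more; some genes this rule names are not reported here. Relative depth is the most common ratio of FPKM between a sample and EGFP replicate 1 over models under 0.3 FPKM in all samples, where values move in steps of a read. Planned comparisons of sequence were not made.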

Additional observations from a re-analysis of the deposited data

How the results depend on the processing

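Alternatives were a pseudocount of 0.1, no filter, a filter of 5 FPKM, scaling by TMM, by quantiles or by median of ratios, a fit with replicate block, each library or replicate number left out, models of a name summed and, added after seeing the data, totals rescaled without FABP4 and a fold of at least 2. The fold was applied only to counts over all models. MMP1 and MMP14 kept their calls in each of the other 18, and no member changed sign there. MMP2 lost its call in 7 of 18, MMP19 in 6 of 18 and MMP11 in 1 of 17 (it is under the 5 FPKM filter). Without replicate 2 of both groups MMP2 and MMP19 were at an adjusted p of 0.105 each, and without replicate 3 at 0.184 and 0.225 (limma). Leaving out replicate 3 of both groups also cost the calls of other named genes. Among them were ADAMTS1, CST3, PLAT, SERPINE2, IL6, JUND, NR4A1, RELA, CEBPB and NFKBIA. Members called higher were 1 with quantile scaling and 1 to 2 with a library or a replicate number left out; members called lower were 1 to 3. Over all models, 991 to 1974 were higher and 618 to 1445 lower with a library left out (1827 and 1131 as reported), 825 and 496 without replicate 2 of both groups, and 312 and 203 without replicate 3 of both groups, and 68 and 89 with a fold of at least 2. With TMM factors 52.9% of the calls were higher, with quantile scaling 50.8%, with median-of-ratios factors 52.2%, without FABP4 in the totals 68.8%, and as reported 61.8%; the median log2 change of all models was 0.049 as reported and from 0.0061 to 0.013 with the 3 scalings.

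Same-numbered samples did not deviate together in every pair (correlations of 0.181, 0.291 and -0.0774), so the replicate block is an alternative only. With it, 2061 models were higher and 1275 lower, the members' calls were 2 higher and 3 lower, and JUN and MMP23 were called. Models that were not called changed sign: PLAU was at -0.0040 with quantile scaling, -0.0020 without lncFABP4 replicate 3, -0.0099 without EGFP replicate 2 and -0.041 without replicate 2 of both groups. RECK was at -0.0095 with quantile scaling, -0.039 without lncFABP4 replicate 1 and -0.031 without replicate 1 of both groups. MMP9 was at 0.070 without EGFP replicate 3 and 0.060 without replicate 3 of both groups. With a library left out they ran up to 0.15 for PLAU and 0.10 for RECK and down to -0.17 for MMP9. The cause was not tested.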
